A study of Homo sapiens with 6 samples.

Results

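Read counts were followed for 5 rows of the deposited count table at 2 places in the genome, in human HEK293T cells, an embryonic kidney line, with and without THUMPD2. The rows were AL671883.2, which lies over the start of HLA-B on the opposite strand, HLA-B itself, the divergent pair PARP9 and DTX3L, and PARP14, a nearby gene on the same chromosome arm. They were 5 of 59087 rows, and 4 of them were among the 14184 rows with enough reads to test. They were selected on their read counts and fold changes between WT and the lines in these same libraries, so every value given for them is a description and carries no test. The groups were wild type HEK293T (WT) and 2 separate THUMPD2 knockout lines, KO1 and KO2, with 2 libraries in each group. THUMPD2 encodes a methyltransferase whose substrate is U6, an RNA of the spliceosome. Each knockout is 1 line set against 1 WT line, so an effect of the missing gene and any other difference between a line and WT cannot be told apart. The THUMPD2 row had from 0 to 3 reads in each library, too few to check the genotype labels.

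Interferons bind cell-surface receptors and activate JAK kinases and STAT transcription factors. Together with IRF proteins these bind short promoter elements, the interferon-stimulated response element (ISRE) and the gamma-activated site (GAS), and switch on antiviral and antigen-presentation genes. HLA-B encodes a class I heavy chain that displays peptides to cytotoxic T cells. PARP9 (an ADP-ribosyltransferase-family protein with macrodomains) and DTX3L (a Deltex-family ubiquitin ligase) form a complex that works in antiviral signalling and DNA damage repair, and their genes are read from a shared promoter region. PARP14 is a macrodomain-containing mono-ADP-ribosyltransferase.

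The promoters are shown because PARP9 and DTX3L start within the same stretch of DNA, and because the IRF-type motifs that these genes have in common are found there. Sequences are from RefSeq on GRCh38.p14 and each window spans 300 bases around an annotated start, 5′ to 3′ on the gene's own strand. Capitals mark the matches to the IRF-type motifs, or their reverse complement.
DTX3L promoter, chr3:122564088-122564387, plus strand: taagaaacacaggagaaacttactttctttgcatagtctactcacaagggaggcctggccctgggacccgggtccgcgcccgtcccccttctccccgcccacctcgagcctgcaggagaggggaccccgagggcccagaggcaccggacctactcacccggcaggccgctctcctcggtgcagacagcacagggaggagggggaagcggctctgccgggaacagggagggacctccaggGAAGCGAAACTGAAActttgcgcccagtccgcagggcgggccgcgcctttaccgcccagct
PARP9 promoter stretch, chr3:122564307-122564361, minus strand: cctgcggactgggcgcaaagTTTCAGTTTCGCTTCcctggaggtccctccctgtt
PARP14 promoter, chr3:122680589-122680888, plus strand: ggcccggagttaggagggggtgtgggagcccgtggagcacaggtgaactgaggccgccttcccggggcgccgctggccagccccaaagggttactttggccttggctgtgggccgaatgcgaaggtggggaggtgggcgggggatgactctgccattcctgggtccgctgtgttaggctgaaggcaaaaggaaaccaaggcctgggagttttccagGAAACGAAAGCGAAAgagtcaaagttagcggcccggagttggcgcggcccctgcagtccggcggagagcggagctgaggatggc
HLA-B promoter, chr6:31357130-31357429, minus strand: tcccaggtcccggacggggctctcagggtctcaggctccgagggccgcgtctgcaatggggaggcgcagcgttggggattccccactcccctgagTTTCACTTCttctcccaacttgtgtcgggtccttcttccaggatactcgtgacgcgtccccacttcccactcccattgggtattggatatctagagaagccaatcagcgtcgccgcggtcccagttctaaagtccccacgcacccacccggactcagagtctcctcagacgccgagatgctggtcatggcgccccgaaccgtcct

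Motifs were searched on both strands as the ISRE core (a pair of GAAA half-sites set 2 bases apart), GAANNGAAA (a shorter IRF core that can overlap it) and TTCNNNGAA (GAS). The capital runs of DTX3L and of the PARP9 stretch are the same DNA read from either strand. The ISRE core GAAACTGAAA at chr3:122564332-122564341 begins 6 bases before the RefSeq start of DTX3L and runs past it. Read from PARP9, it begins 41 bases before the start used by that window. Distances here are to RefSeq starts, and the GENCODE v29 rows used below start elsewhere, DTX3L at chr3:122564238. The DTX3L and PARP9 windows overlap by 137 bases. A further PARP9 window in the same table, at chr3:122564735-122565034, held none of the 3 motifs. PARP14 had the ISRE core GAAAGCGAAA 29 bases before its start and the GAS match TTCCAGGAA 40 bases before it. In HLA-B the match was to the shorter core only, as TTTCACTTC 155 bases before the start. Of all 35116 RefSeq promoter windows, 3.57% held the ISRE core, 7.66% the shorter core and 7.66% the GAS letters. Among the 72 windows of a fixed list of interferon-stimulated genes these shares were 56.9%, 40.3% and 19.4%. They were 35.3%, 20.6% and 5.88% for the 34 windows of the class I presentation list and 2.63%, 7.89% and 13.2% for the 38 windows of the interferon signalling list. A match describes letters and shows no binding.

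Each row's name and the strand of its reads need care. Some abundant genes held few reads on their own row, while the row annotated on the opposite strand over the same exons held many. TUBB, a tubulin gene near HLA-B, had 74 to 97 reads per library on its own row, whereas AL662797.1, annotated over it on the other strand, had 45333 to 53626. KPNA1, an importin gene near DTX3L, had 211 to 317 reads, and AC083798.2 over it had 3149 to 5383. Other rows ran the other way: ERAP1, an aminopeptidase gene of class I presentation, had 2155 to 2937 reads on its own row and 84 to 143 on AC008906.1 over it. The library kit keeps strand, but the strand setting of the counting is not given in the sources used here, and the table does not say where in a row its reads lie. Symbols below therefore stand for rows. AL671883.2 (ENSG00000271581.1, an unprocessed pseudogene, chr6:31356647-31357637 on the plus strand of GRCh38 in GENCODE v29) has 991 exonic bases, of which 542 (54.7%) lie over HLA-B exons and 449 lie beyond the HLA-B start. HLA-B (ENSG00000234745.10, chr6:31269491-31357188, minus strand) has 3051 exonic bases, and 449 of the 542 shared bases are coding. PARP9 (ENSG00000138496.16, chr3:122527924-122564577, minus strand) and DTX3L (ENSG00000163840.9, chr3:122564238-122575203, plus strand) share 217 exonic bases, which is 2.43% of the 8938 in PARP9 and 3.70% of the 5868 in DTX3L. PARP14 (ENSG00000173193.14, chr3:122680618-122730840, plus strand, 10495 exonic bases) shared none with another of these rows.

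**Figure D1:**
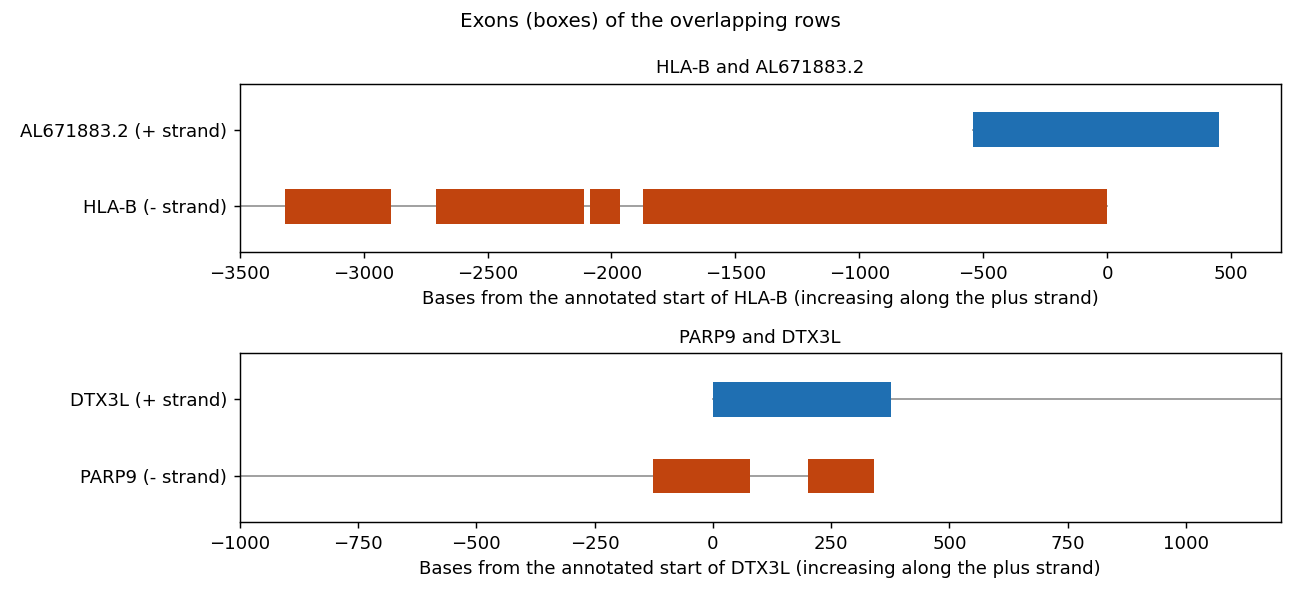
Exons (boxes) of HLA-B with AL671883.2, and of PARP9 with DTX3L, against the distance in bases from the annotated start of HLA-B or DTX3L (positive along the plus strand). Of the AL671883.2 row, 54.7% lies over the 5′ exon of HLA-B, while PARP9 and DTX3L share only their starts.

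At the HLA-B locus, the well-covered row was AL671883.2. The WT libraries held 4777 and 5196 reads of it, the KO1 libraries 1848 and 1865, and the KO2 libraries 2932 and 3161. All 4 knockout libraries lay below both WT libraries, as they did in CPM for 18.6% of all tested rows. Both KO1 libraries lay below both KO2 libraries, and the share of all rows that do so was not counted. In CPM, the counts scaled to library size with TMM factors, the mean was 645.1 ± 5.12 in WT, 254.2 ± 12.2 in KO1 and 359.0 ± 5.96 in KO2 (SD, n = 2 libraries each). KO1 thus stood at 39.4% and KO2 at 55.7% of the WT level. On the log2 scale the edgeR estimates were -1.34 ± 0.06 (SE) for KO1 against WT, a 2.54-fold lower level, and -0.85 ± 0.06 for KO2 against WT, 1.80-fold lower. KO1 against KO2 was -0.50 ± 0.06, or 1.41-fold. With 6 libraries of bulk RNA, fewer cells carrying a transcript and less of it per cell cannot be told apart.

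The HLA-B row itself held only 19 and 10 reads in the WT libraries, against 13 and 3 for KO1 and 12 and 10 for KO2. The groups overlapped. The log2 estimates were -0.79 ± 0.63 (SE) for KO1 and -0.53 ± 0.60 for KO2, and the WT to knockout ratio of summed reads, scaled to library size, was 1.71 for KO1 (95% exact interval 0.90 to 3.38) and 1.45 for KO2 (0.80 to 2.64), intervals that cover counting error only. No change of the row under its own name was detectable at this depth. The row's mean count over the libraries was 11.2, against 3297 for AL671883.2. Classical class I genes such as HLA-B and HLA-C are near-identical copies, so their reads may be split or lost by the authors' counting, and HLA-B as annotated shares 35 exonic bases with HLA-C on the same strand. In the authors' deposited table, which sets 4 knockout against 2 WT libraries, the log2 fold change was -1.05 for AL671883.2 and -0.64 for HLA-B.

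**Figure D2:**
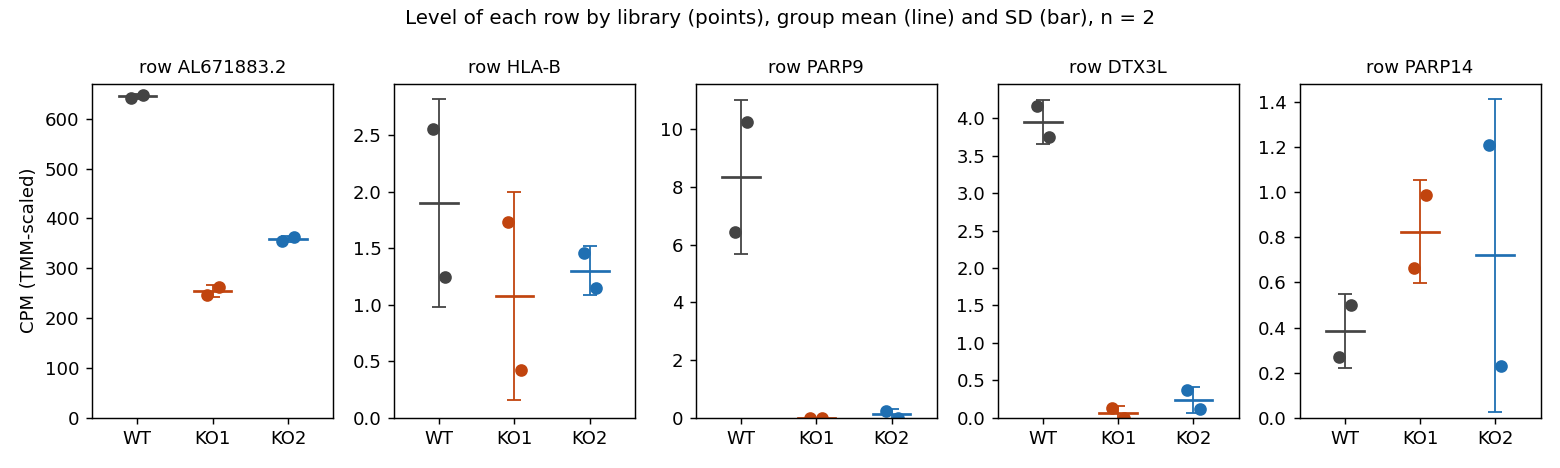
CPM after TMM scaling of the 5 rows in each library (points), with the group mean (line) and SD (bar, n = 2); each panel has its own axis. AL671883.2, PARP9 and DTX3L show all 4 knockout libraries below both WT libraries, while both lines overlap WT for HLA-B, and KO2 overlaps WT for PARP14.

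PARP9 and DTX3L, the paired antiviral genes, had few reads in WT and nearly none in both knockout lines. WT libraries held 48 and 82 reads of the PARP9 row, both KO1 libraries held 0, and the KO2 libraries held 2 and 0. The WT level was 8.34 ± 2.68 CPM (SD, n = 2), and the WT libraries differed between themselves while no knockout library came near either. KO1 was at least 41.0-fold lower than WT, with 130 WT reads set against a floor of 3 counts over the KO1 group, and the 95% exact interval of that ratio began lower, at 32.9. The WT to KO2 ratio was 71.3 (95% exact interval 19.4 to 595), from 130 reads against 2. The 2 lines were not distinguishable from each other at this depth.

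Of the DTX3L row there were 31 and 30 reads in the WT libraries, 1 and 0 for KO1, and 3 and 1 for KO2. Its WT level was 3.95 ± 0.30 CPM (SD, n = 2). The WT to KO1 ratio was 57.7 (95% exact interval 9.98 to 2316) from 61 reads against 1, and the WT to KO2 ratio was 16.7 (6.21 to 63.4) from 61 against 4. The KO2 to KO1 ratio of 3.45 had an interval of 0.34 to 170, so the order of the lines could not be told from the counts. The authors' deposited table gives -4.42 for DTX3L on the log2 scale. Whether reads of the PARP9 row came from PARP9 or from DTX3L on the other strand, and the reverse, was not tested. The reads carry no molecular identifiers, so copies of 1 molecule may be counted more than once and the intervals and floors leave this out.

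For PARP14 the WT libraries held 2 and 4 reads, those of KO1 5 and 7, and those of KO2 10 and 2. Both KO1 libraries lay above both WT libraries in CPM, and the KO2 libraries lay on either side of them. The WT to KO1 ratio was 0.473 (95% exact interval 0.146 to 1.36) and the WT to KO2 ratio 0.549 (0.169 to 1.58), from 6 reads against 12 in each line. Its depth was too low for the fit. These intervals span 1, so neither a lower nor a higher PARP14 row was detectable at this depth. PARP9 and DTX3L stand among 29 of 8538 rows (0.34%) with at least 50 WT reads and a mean CPM under 10% of WT in each line, a threshold set with their values known. Over all tested rows, 18.6% had all 4 knockout libraries below both WT libraries and 17.4% had all 4 above. AL671883.2, PARP9 and DTX3L were 3 of these 5 rows below, and this count is part of how they were picked.

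Rows around each locus were compared next, with edgeR's quasi-likelihood test and Benjamini-Hochberg adjustment over 14184 rows, calling an adjusted p under 0.05. Under that rule 23.6% of rows were called in KO1 against WT (10.4% higher, 13.3% lower) and 29% in KO2 against WT (13.6% higher, 15.4% lower). KO1 against KO2 gave 20.4% (10.1% higher, 10.3% lower), and 13.5% were called in both lines with the same sign (5.79% higher, 7.72% lower). Within 5 Mb of HLA-B, the 121 tested rows other than those described had median log2 changes of 0.09 in KO1 and 0.10 in KO2, and 5 were called higher and 10 lower in both lines. Within 1 Mb, 2 of 42 rows were called higher and 2 lower in both lines. MICA, a stress-induced ligand of the NKG2D receptor beside HLA-B, had 104 and 101 reads for WT, 67 and 58 for KO1 and 52 and 65 for KO2. MICA fell by 0.64 in KO1 (SE 0.22, edgeR quasi-likelihood adjusted p = 0.0316) and by 0.94 in KO2 (SE 0.22, adjusted p = 0.00101). The KO1 call for MICA ended when any 1 WT or KO1 library was left out, with adjusted p from 0.0561 to 0.165, and with DESeq2, upper-quartile scaling or no filter. HLA-C, the other near neighbour, was not called (log2 0.64 ± 0.44 and 0.86 ± 0.43 SE).

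The chromosome 3 locus differed between the lines. Within 5 Mb of DTX3L, the median log2 change of 39 tested rows was -0.54 in KO1 and 0.05 in KO2, with 0 called higher and 9 lower in KO1, and 2 higher and 3 lower in KO2. KO1 against KO2 had a median of -0.66 there, with 11 called lower and 1 higher. Over all tested rows the medians were 0.01 in KO1 and 0.02 in KO2. The low PARP9 and DTX3L counts stood in both lines. Less the regional median, the fitted KO1 values were -8.50 for PARP9 and -5.02 for DTX3L, and these fitted values depend on the prior count that the model adds to rows near 0. For AC083798.2 over KPNA1 the WT libraries held 4507 and 4578 reads, those of KO1 3325 and 3149, and those of KO2 4980 and 5383. Copy number of this region was not tested.

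**Figure D3:**
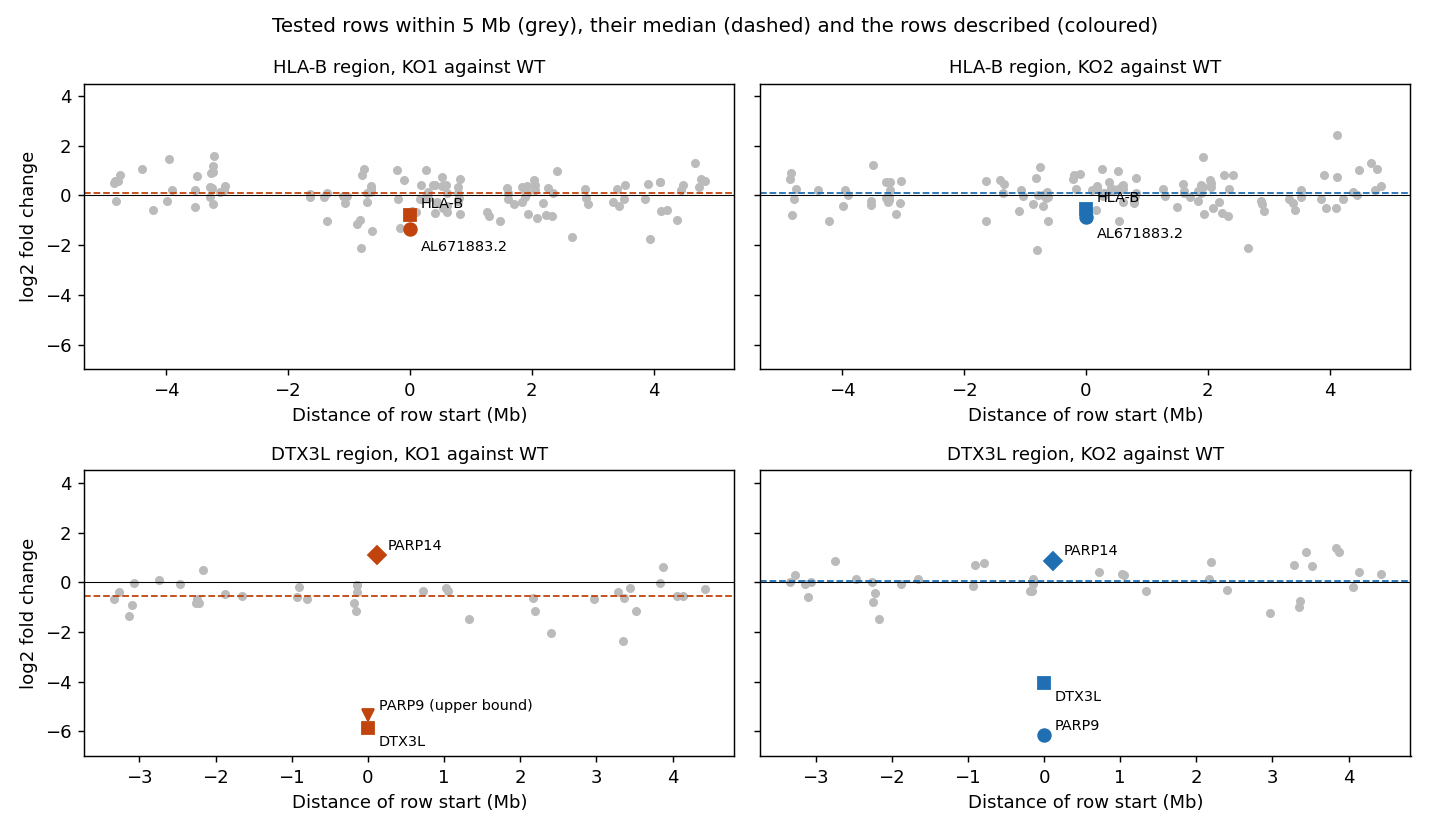
Log2 fold change against distance of the row start (Mb) for tested rows within 5 Mb (grey points, edgeR estimate), their median (dashed line) and the rows described (coloured, log2 of the ratio of summed reads scaled to library size, with the KO1 value of PARP9 an upper bound). PARP9 and DTX3L lie well below all grey points of their region in both lines, and the dashed line lies at -0.54 in KO1 and 0.05 in KO2.

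Lists of related genes, fixed with earlier results of these data known, were read through each gene's own row and, separately, through the row over its exons on the opposite strand, with the 5 rows left out. Over all tested rows, 5.79% were called higher and 7.72% lower in both lines, and the list counts below stand beside these shares. Class I antigen presentation (24 genes) had 16 tested rows under their own names. Of these, 0 were called in both lines by edgeR, 0 by DESeq2, 0 by limma-voom and 0 at an unadjusted p under 0.05. In single lines, edgeR called 0 higher and 2 lower in KO1, and 1 higher and 2 lower in KO2. Over all tested rows, 23.6% were called in KO1 and 29% in KO2. B2M, the class I light chain, held 152 and 132 reads for WT, 148 and 166 for KO1 and 211 and 164 for KO2, with log2 values of 0.22 and 0.27 (edgeR adjusted p = 0.402 and 0.270). HLA-E and HLA-F were not called either, although HLA-E in KO1 passed without KO1 replicate 2 (-2.58) or WT replicate 2 (-1.47). HLA-G had 0 reads in every library, TAP1 (a peptide transporter) had 0 to 1 and NLRC5 (the class I transactivator) 0 to 5.

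Read through the opposite strand, 9 rows of the class I list were tested, and 3 were called lower and 0 higher in both lines. AC092069.1, over the chaperone gene CALR, held 13996 and 15152 reads for WT, 8417 and 9372 for KO1 and 11467 and 13092 for KO2. It fell by 0.63 in KO1 and by 0.38 in KO2 (edgeR adjusted p = 1.59e-10 and 2.98e-06). NR2C2AP, over the regulatory-factor gene RFXANK, fell by 0.33 and 0.75, and RNF31, over the proteasome activator gene PSME2, fell by 0.56 and 1.16. NR2C2AP and RNF31 are genes of their own, so their rows cannot be assigned to RFXANK or PSME2. The KO1 call for NR2C2AP ended without KO1 replicate 1 (log2 -0.21) or WT replicate 1 (-0.28), and that for RNF31 without KO1 replicate 2 (-0.30) or WT replicate 1 (-0.36) and with DESeq2 (-0.56) or upper-quartile scaling (-0.48). The list's median was -0.33 in KO1 and -0.21 in KO2.

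Interferon-stimulated genes (69 listed, 67 rows found) had 19 tested rows, of which 1 was called higher and 0 lower in both lines. That row was ZNFX1, an RNA helicase-like antiviral sensor. It stood at log2 0.39 in KO1 and 0.68 in KO2 (edgeR adjusted p = 4.25e-06 and 2.55e-11). DDX27, a gene of its own with 22 to 38 reads, shares at least 100 exonic bases with ZNFX1 on the opposite strand. The ZNFX1 row therefore cannot be assigned to ZNFX1. Classical members held few reads under their own names in every group. ISG15, a ubiquitin-like protein, held 3 to 8 reads per library, MX1, an antiviral GTPase, 0 to 2, and IFIT1, an RNA-binding antiviral protein, 18 to 37. Reads placed on an opposite-strand row would be missing from these counts. The list's median was -0.26 in KO1 and -0.17 in KO2. On the opposite strand 9 rows were tested and 2 were called lower in both lines. AC015912.1, over TRIM25, a ubiquitin ligase of the RIG-I pathway, held 1412 and 1436 reads for WT, 642 and 635 for KO1 and 676 and 638 for KO2, log2 -1.08 ± 0.08 and -1.25 ± 0.08 (SE, edgeR adjusted p = 1.75e-13 and 2.44e-15). TRIM25's own row held 40 to 78 reads and was not called. AC124319.3, over RNF213, fell by 0.39 and 0.33 (edgeR adjusted p = 0.00074 and 0.00257), and its KO2 call ended without KO2 replicate 2 (-0.29).

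Interferon signalling genes (29 listed) had 16 tested rows, of which 3 were called higher and 0 lower in both lines. They were IFNAR1, a type I interferon receptor chain, at log2 0.56 and 0.54, IRF2BP2, a transcriptional corepressor, at 1.07 and 1.73, and PIAS1, an inhibitor of activated STAT proteins, at 0.77 and 0.59. The edgeR adjusted p values were 0.0149 and 0.0156 for IFNAR1, 0.00608 and 4.32e-06 for IRF2BP2, and 6.04e-11 and 1.6e-08 for PIAS1. CALML4, a gene of its own with 73 to 116 reads, shares at least 100 exonic bases with PIAS1 on the opposite strand. The PIAS1 row therefore cannot be assigned to PIAS1. The IFNAR1 calls ended without WT replicate 2 (0.26 in KO1, 0.24 in KO2), without KO1 replicate 2 (0.47 in KO1) and without KO2 replicate 1 (0.44 in KO2), and with DESeq2 (0.57 and 0.52). IRF1, an interferon-induced transcription factor, was not called (0.08 and 0.66), and IRF9, a subunit of the complex that binds the ISRE, had 0 to 3 reads. On the opposite strand, 7 rows were tested. AL160408.2, over IRF2BP2, rose by 1.04 and 1.49 (edgeR adjusted p = 3.42e-17 and 9.81e-22), and BCL2L12, a gene of its own over IRF3, fell by 0.72 and 0.42 (5.82e-10 and 1.29e-05).

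**Figure D4:**
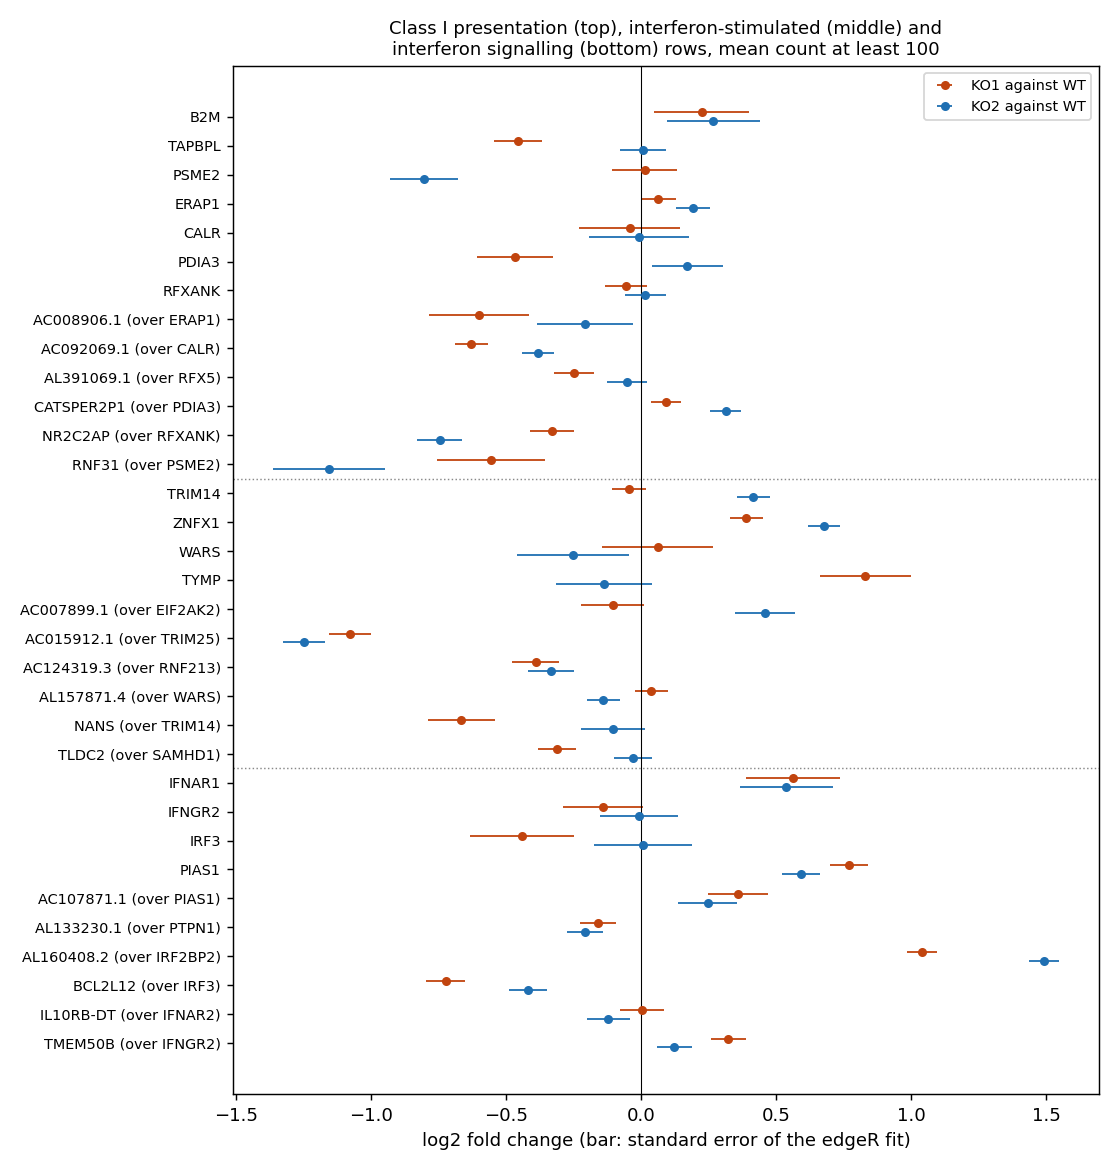
Log2 fold change against WT (points) with the SE of the edgeR fit (bars) for tested rows with a mean count of at least 100, drawn for the rows reported, in the class I presentation, interferon-stimulated and interferon signalling lists, KO1 in orange and KO2 in blue. Rows lie on both sides of 0, with AC015912.1 lowest among the interferon-stimulated rows and AL160408.2 highest among the signalling rows in both lines.

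For the enzymes related to PARP9 and PARP14, 13 rows of the PARP and ADP-ribose hydrolase list were tested, 1 called higher and 1 lower in both lines. PARP1, the main DNA-damage-responsive poly-ADP-ribose polymerase, held 106 and 102 reads for WT, 198 and 159 for KO1 and 165 and 185 for KO2, and rose by 0.86 and 0.61 (edgeR adjusted p = 0.000186 and 0.00542), the KO2 call ending without WT replicate 2 (0.54). PARP10, a mono-ADP-ribosyltransferase, fell by 0.28 and 0.34 (0.0012 and 0.000109). Of the 6 tested rows of the list around DTX3L, Deltex proteins and DNA-damage ubiquitin ligases, 0 were called in both lines by edgeR, DESeq2 or limma-voom, and 0 at an unadjusted p under 0.05. The nucleic acid sensing list had 8 tested rows and 1 called, RNASEH2C, a subunit of ribonuclease H2, at 0.33 and 0.19 (edgeR adjusted p = 2.33e-05 and 0.00849). The KO2 call ended without KO2 replicate 1 (0.18) or WT replicate 2 (0.16). RNASEH2C shares 1439 exonic bases with KAT5, a gene of its own on the opposite strand with 3875 to 5705 reads. The RNASEH2C row therefore cannot be assigned to RNASEH2C. Read through the opposite strand, 4 sensing, 3 PARP and 2 DNA-damage ubiquitin rows were tested. By edgeR, DESeq2 or limma-voom, and at an unadjusted p under 0.05, 0 were called in both lines with the same sign. C1orf147, over the sensing gene IKBKE, was called in both lines with opposite signs. It fell by 2.72 in KO1 and rose by 1.03 in KO2 (edgeR adjusted p = 1.2e-06 and 0.00178). The 6 lists read by row name had 16, 19, 16, 8, 13 and 6 rows tested. Across them, 7 rows were called in both lines with the same sign. This count was smaller without WT replicate 2. Over all tested rows, 13.5% were called in both lines with the same sign.

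Cell identity was checked with marker lists. KRT8 and VIM, keratin and vimentin markers of HEK293T, were present in every library (2560 to 4914 and 296 to 692 reads), and LHX1 had 0 reads on its own row in all of them. The KRT8 row shares 525 exonic bases with KRT18 on the opposite strand, so its reads cannot be assigned to KRT8. Of the 4 tested HEK293T marker rows, edgeR called 4 higher in KO2 and 2 lower in KO1 against WT. Through the opposite strand, 6 rows were tested, with 5 called higher and 1 lower in KO2, and 0 higher and 3 lower in KO1. Summed WT levels were 7439 to 7562 CPM through the opposite strand and 516 to 520 CPM by row name. The part of these differences in the results above was not tested. Summed immune cell markers ran from 10.2 to 11.3 CPM in WT, 9.86 to 13.3 in KO1 and 8.39 to 11.6 in KO2, and summed fibroblast markers from 1.20 to 2.06 CPM over all libraries. These levels by row name did not separate the groups, and 0 of the 6 tested immune rows were called in either line by edgeR, DESeq2 or limma-voom, or at an unadjusted p under 0.05. For both lists 0 opposite-strand rows were tested, so marker reads placed on the other strand would be missed. Presence of such cells therefore cannot be decided from these rows. The class II presentation list had 3 tested rows, and its median was 0.02 in KO1 and -0.07 in KO2. The row of CIITA, the class II transactivator, fell by 0.36 in KO2 and was not called in KO1 (0.02), and HLA-DPA1 was not called in either line. DEXI, a gene of its own with 5 to 16 reads, shares 2416 exonic bases with CIITA on the opposite strand. The CIITA row therefore cannot be assigned to CIITA. CD74, the class II invariant chain, rose by 0.20 in KO1 and 0.32 in KO2 (edgeR adjusted p = 0.0134 and 7.88e-05), and the KO1 call ended without WT replicate 1 (0.15).

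Rows most like AL671883.2 were found by the root mean square difference of log2 CPM over the 6 libraries after subtracting each row's mean, among tested rows with a mean count of at least 100. TPGS2, annotated over FHOD3, was the nearest at 0.0709, followed by CIRBP, a cold-inducible RNA-binding protein gene, at 0.0729, and by ANXA9 (0.0760), GDI2 (0.0763) and LYRM2 (0.0787). CIRBP held 5403 and 6027 reads for WT, 2120 and 2103 for KO1 and 3245 and 3149 for KO2, a level in KO1 below that in KO2 as in AL671883.2. Those nearest to PARP9 were AL133375.1 (0.485, over CUL9), LINC00847 (0.510), AC015712.2 (0.542, over ALDH1A3), HDDC2 (0.811, over TPD52L1) and RPS16P9 (1.01). AC015712.2 held 469 and 519 reads for WT, 19 and 10 for KO1 and 44 and 40 for KO2. These rows were picked for their likeness in the same libraries, so their values are no test, and the larger distances for PARP9 include the counting error of its 130 WT reads.

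**Figure D5:**
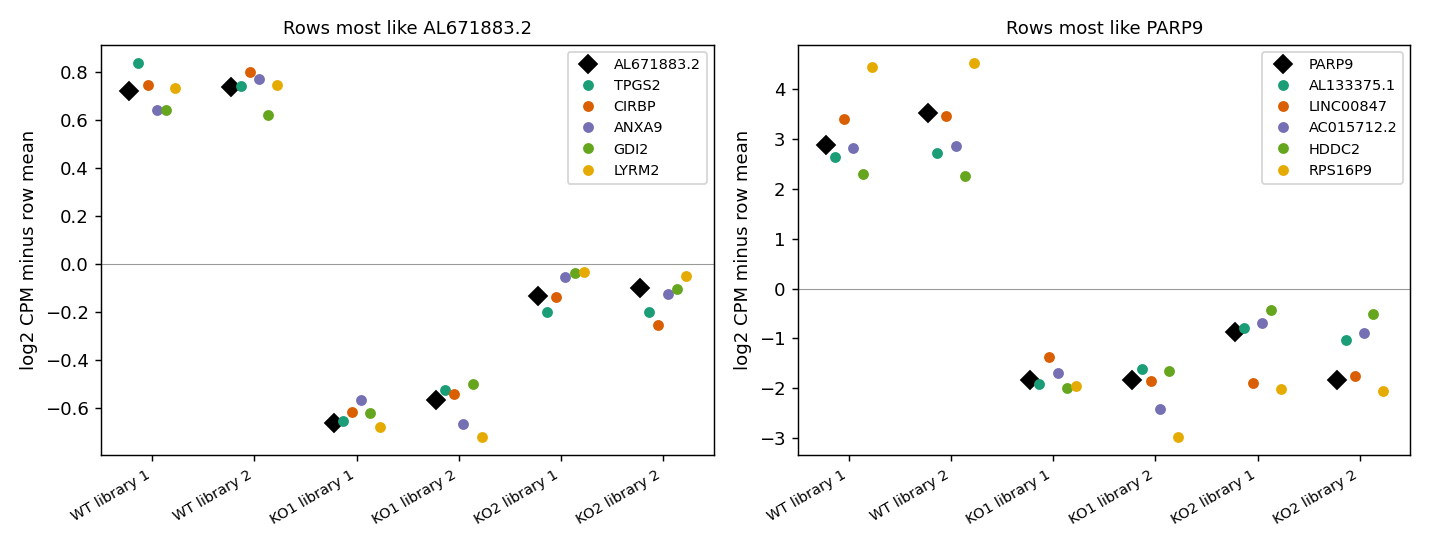
Log2 CPM minus the row's mean in each of the 6 libraries for AL671883.2 (left) and PARP9 (right), shown as black diamonds, with the 5 rows most like each (coloured points). On the left all rows run high in WT, lowest in KO1 and between them in KO2, while on the right they are high in WT and low in both lines.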

How the data were processed

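Total RNA of HEK293T cells was sequenced in 6 libraries, 2 each of WT, KO1 and KO2, grouped by the genotype labels. RNA came from TRNzol extracts and went into a strand-keeping kit (NEBNext Ultra II Directional), per the labels' protocols. Per the submitters' processing notes, limma, HTSeq 0.6.1p1, STAR 2.7.1a and Trim Galore were used, and the builds hg38 and GRCh38.p6 are named. Raw counts of reads for each gene symbol were deposited by the authors, and summed to between 7414339 and 8391143 a library. A table with FPKM values, p-values and q-values, scores and log2 fold changes of 4 knockout against 2 WT libraries was also deposited, of which the log2 fold changes of 3 rows are quoted.

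Counts were tested with edgeR 4.0.16 in R 4.3.3 (quasi-likelihood F test, TMM, filterByExpr, Benjamini-Hochberg over 14184 rows, called under 0.05), with all 6 libraries in 1 fit of 3 groups. The biological coefficient of variation was 7.57%, with 3 residual and 31.9 prior degrees of freedom. No source used here says that replicate libraries were separate cultures, and the p-values reflect the spread between libraries alone, which may be technical. The 5 rows and all lists were chosen with earlier results of these data known. Named rows were those 5, rows sharing at least 100 exonic bases with them, fixed class I and interferon genes, up to 4 called rows per list and reading (or the 2 most abundant), the 2 nearest tested rows on each side of each locus, and the 5 most alike; a few more are named as examples after their values were seen, and the values of some named rows are not reported here. Positions came from GENCODE v29. A row read a gene on the opposite strand if it shared at least 100 exonic bases with that gene and these were at least 80% of all its overlap on the other strand. Ratios of summed reads have 95% exact intervals, and a group at 0 was set to 3 counts. The fit was tested on simulated data. Alternatives were other scalings, no filter, DESeq2 1.42.0, limma-voom 3.58.1, 4-library fits, a replicate block, regional medians and leaving out each library.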

Additional observations from a re-analysis of the deposited data

Results flagged for a closer look

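The effects of the 2 lines were compared directly for each named row outside the 5. Of the named rows reported, 18 differed between KO1 and KO2 by edgeR's quasi-likelihood test with Benjamini-Hochberg adjustment. Named rows numbered 69, counting the 5, rows too low to test and rows not reported here. Over all tested rows 20.4% differed, but many named rows were picked for their calls or their likeness, so the count and this share cannot be compared. Values here are log2 of KO1 against KO2. Among rows of the interferon and antigen-presentation lists, KO1 was lower for ZNFX1 (-0.29), AL160408.2 over IRF2BP2 (-0.45), BCL2L12 over IRF3 (-0.30) and AC092069.1 over CALR (-0.25). KO1 was higher for NR2C2AP over RFXANK (0.41) and RNF31 over PSME2 (0.60). In the nucleic acid sensing list, KAT5 over RNASEH2C was lower in KO1 (-0.26). Among rows of the PARP and DNA-damage ubiquitin lists, AL355075.4 over PARP2 was higher in KO1 (0.57) and TP53BP1, a DNA double-strand-break repair protein, was lower (-0.19). TP53BP1 shares 3732 exonic bases with TUBGCP4 on the opposite strand.

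ADCY5, an adenylyl cyclase gene near DTX3L, was lower in KO1 (-0.78), in the stretch of chromosome 3 where the median of tested rows was -0.66 between the lines. The HEK293T markers KRT8 (-0.63) and VIM (-0.95) were lower in KO1 too. AC015712.2 (-1.31), HDDC2 (-1.37), ANXA9 (-0.53), CIRBP (-0.38), GDI2 (-0.50) and LYRM2 (-0.66) also differed, but they were picked for likeness to AL671883.2 or PARP9 over these libraries, so their difference is no independent result.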

How the results depend on the processing

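Under other scalings, filters and tools, the log2 fold change of AL671883.2 moved by more than the replicate SD only in KO1 with upper-quartile scaling (-1.27) and after subtracting the regional median (-1.44 in KO1, -0.95 in KO2); leaving out each library gave -1.40 to -1.30 in KO1 and -0.86 to -0.82 in KO2. Fitted values of PARP9 and DTX3L depend on the prior count: PARP9 in KO1 was -9.04, against -8.37 with DESeq2, -6.91 with limma-voom, -8.50 less the regional median and -9.35 to -8.66 leaving out each library, and in KO2 it was -5.97, with -9.02 to -5.01. DTX3L in KO1 was -5.56, against -5.08 with limma-voom, -5.02 less the regional median and -7.97 to -4.74 leaving out each library, and in KO2 -3.98, with -4.91 to -3.38. HLA-B ran from -2.12 to -0.13 in KO1 and from -0.96 to 0.05 in KO2. Counts of called rows ran from 2575 to 3410 in KO1, 3228 to 4540 in KO2 and 2120 to 3007 between lines. List rows called in both lines with the same sign ran from 4 to 8. AL645939.1, over HLA-F, turned from an uncalled negative value to 2.65 in KO1 and 1.69 in KO2 without WT replicate 2, and ran from -0.93 to 2.65 and from -4.60 to 1.69 leaving out each library; the cause was not tested. Over the named rows, 1397 of 1455 alternative values kept their direction and side of the threshold.

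Replicate numbers did not pair the samples: deviations of same-numbered libraries correlated at -0.03, -0.02 and -0.02. With the replicate block, AL671883.2 was -1.34 in KO1 and -0.85 in KO2, and 3145, 3944 and 2729 rows were called in KO1, in KO2 and between lines. Read depth limits the HLA-B, PARP14, PARP9 and DTX3L rows, which rest on 6 to 130 WT reads.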
